A study of Homo sapiens with 24 samples.

Results

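The cancer-testis antigen genes CSAG1, CSAG3, MAGEA2, MAGEA3, MAGEA4, MAGEA6, MAGEA12, MAGEC2 and PRAME were followed through a CAGE-Seq experiment on glioblastoma cells. They are 9 of the 43037 genes of the expression table and were found there by their Ensembl identifiers. They had been picked for levels that separate the cell lines, so the differences between lines given here are a description without a test. Earlier results of these data were known at that choice, possibly including the changes within lines that are tested below. The p-values of those changes may thus not be independent of the choice.

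CAGE-Seq (cap analysis of gene expression) captures the capped 5′ ends of transcripts, and each sequenced tag marks 1 such end. The libraries came from 4 established lines of glioblastoma cells, which were DBTRG-05MG, U251MG, T98G and U87MG. Of each line there was a “Vec” variant, transduced with the blank control lentivirus (Puro-Blank Lentivirus), and a “WWOX” variant, transduced with the lentiviral construct pLenti-GIII-CMV-GFP-2A-Puro, which carries the WWOX tumor suppressor gene under the CMV promoter. Both variants had passed puromycin selection, described as clonal. The number of clones behind a variant is not given in the sources used here, so the effect of WWOX and of a selected clone cannot be told apart. Each of the 8 groups had 3 biological replicate libraries, 24 in all. T98G grew in MEM, U87MG and U251MG in EMEM and DBTRG-05MG in RPMI-1640, so line and medium cannot be told apart for T98G and DBTRG-05MG, while U87MG and U251MG shared a medium.

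Cancer-testis antigen genes are active in male germ cells, are silent in most other adult tissues and are switched on again in many tumors. Methylation of CpG dinucleotides at their promoters is a well-known means of their silencing. The proteins of the MAGE family share a MAGE homology domain and bind RING-type ubiquitin ligases, whose targets they alter. Fragments of these proteins shown on HLA molecules can be recognised by T cells, for which MAGEA3, MAGEA4 and PRAME have been targets of immunotherapy.

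Of the 9 members, 6 lie in 1 cluster on the long arm of chromosome X, within chrX:152698767-152769716 (hg38, GENCODE 44), a span of 70.95 kb. In order of position these are MAGEA3 (+ strand), CSAG1 (−), MAGEA12 (+), MAGEA2 (−), CSAG3 (+) and MAGEA6 (−). CSAG1 and MAGEA12 start back to back with 22 bp between their starts, and MAGEA2 and CSAG3 do so with 37 bp. MAGEA4 lies on the same chromosome at chrX:151912495-151925171 and MAGEC2 at chrX:142202342-142205290, whereas PRAME is at chr22:22547701-22559361.

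Promoter windows of 300 bases, 250 before and 50 after the RefSeq start (GRCh38.p14), were found for all 9 members. Those of 5 are printed because the results turn on CSAG1, MAGEA3 and MAGEC2, while CSAG3 and MAGEA12 are the near copy and the back-to-back partner of CSAG1. They read 5′ to 3′ along the gene, and the capitals mark CpG dinucleotides. The windows are CSAG1 chrX:152733672-152733971 (−), CSAG3 chrX:152753671-152753970 (+), MAGEA3 chrX:152698544-152698843 (+), MAGEA12 chrX:152733507-152733806 (+) and MAGEC2 chrX:142205241-142205540 (−).
CSAG1: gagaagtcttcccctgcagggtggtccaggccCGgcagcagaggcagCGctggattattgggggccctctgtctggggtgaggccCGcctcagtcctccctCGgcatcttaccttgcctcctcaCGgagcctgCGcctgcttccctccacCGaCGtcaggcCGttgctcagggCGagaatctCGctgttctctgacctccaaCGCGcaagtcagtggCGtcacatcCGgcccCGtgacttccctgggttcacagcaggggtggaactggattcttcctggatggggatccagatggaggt
CSAG3: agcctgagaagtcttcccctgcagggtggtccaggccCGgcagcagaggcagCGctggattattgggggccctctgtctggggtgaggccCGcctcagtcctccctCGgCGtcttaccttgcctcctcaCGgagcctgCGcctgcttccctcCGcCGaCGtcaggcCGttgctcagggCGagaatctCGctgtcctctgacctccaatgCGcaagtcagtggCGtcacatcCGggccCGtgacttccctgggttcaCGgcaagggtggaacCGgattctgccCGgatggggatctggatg
MAGEA3: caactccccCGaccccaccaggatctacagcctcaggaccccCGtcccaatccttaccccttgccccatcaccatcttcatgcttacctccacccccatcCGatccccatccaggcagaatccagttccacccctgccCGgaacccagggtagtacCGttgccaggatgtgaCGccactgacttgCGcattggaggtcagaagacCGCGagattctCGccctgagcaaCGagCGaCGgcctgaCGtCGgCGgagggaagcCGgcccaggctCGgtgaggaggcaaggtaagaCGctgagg
MAGEA12: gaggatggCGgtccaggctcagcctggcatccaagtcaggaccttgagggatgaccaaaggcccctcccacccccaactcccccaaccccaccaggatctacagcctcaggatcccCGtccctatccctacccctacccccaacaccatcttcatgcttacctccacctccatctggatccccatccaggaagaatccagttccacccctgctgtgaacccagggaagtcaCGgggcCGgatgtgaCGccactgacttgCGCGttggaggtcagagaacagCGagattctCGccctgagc
MAGEC2: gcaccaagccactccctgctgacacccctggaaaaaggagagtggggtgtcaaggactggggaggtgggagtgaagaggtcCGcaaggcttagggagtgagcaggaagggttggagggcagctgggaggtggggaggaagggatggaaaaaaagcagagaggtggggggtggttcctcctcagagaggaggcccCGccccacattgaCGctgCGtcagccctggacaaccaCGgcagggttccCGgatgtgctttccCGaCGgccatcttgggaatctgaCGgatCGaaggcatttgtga

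The window of MAGEA6, chrX:152769640-152769939 (−), was identical to that of MAGEA3 at 300 of 300 bases. The windows of CSAG1 and CSAG3 matched at 283 of 295 aligned bases (95.9%), and those of MAGEA2 and MAGEA12 at 276 of 292 (94.5%). CSAG1 had 16 CpG, CSAG3 20, MAGEA3 and MAGEA6 19 each, MAGEA2 13, PRAME 13, MAGEC2 10, MAGEA4 10 and MAGEA12 9. Over all 35114 RefSeq promoter windows the median was 14 CpG, with quartiles of 4 and 28. The members were thus in the middle range of promoters by CpG number, and methylation itself was not measured in these samples.

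**Figure D1:**
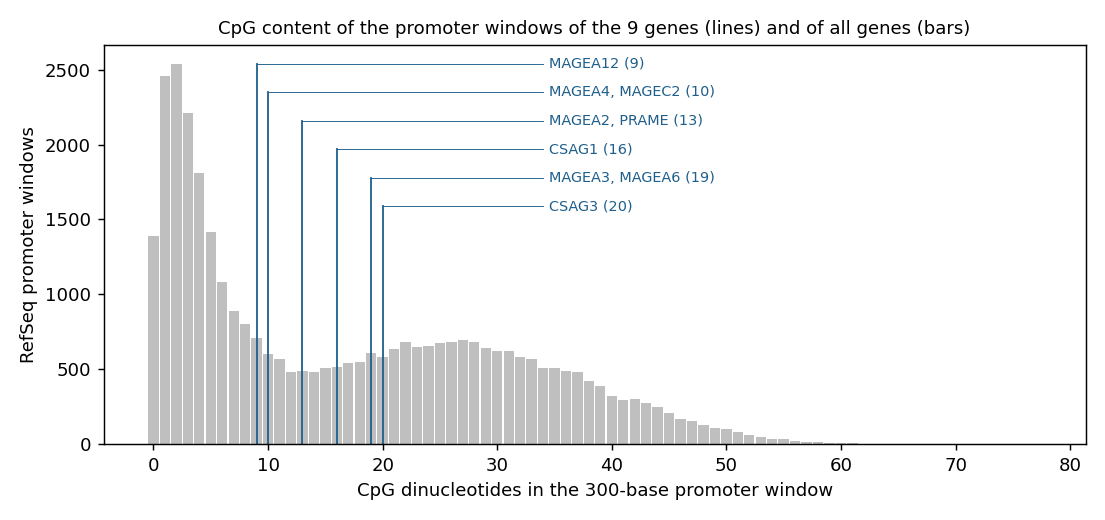
Number of CpG dinucleotides in the 300-base promoter window (x axis) against the number of RefSeq promoter windows with that number (y axis), with the 9 members marked by vertical lines. The members lie between 9 CpG (MAGEA12) and 20 CpG (CSAG3), inside the quartiles of 4 and 28 of all windows.

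Short motifs were searched on both strands of the windows. The letters CCGGAA, the core bound by ETS factors, occurred in 3 members (MAGEA3, MAGEA6 and PRAME) and in 17.2% of all promoters. The core TGACGT of the cyclic AMP response element occurred in 4 members (CSAG1, CSAG3, MAGEA3 and MAGEA6) and in 7.98% of all promoters, and the SP1 core GGGCGG in 1 member (MAGEC2) and in 45% of all promoters. No member window held the E-box CACGTG (7.26% of all promoters), the E2F6 core TCCCGC (26.9%) or the TATA letters TATAAA (11.5%). These are matches of letters, of which none overlapped another in the member windows, and binding was not measured. The windows of MAGEA3 and MAGEA6 are identical and those of CSAG1 and CSAG3 near copies, so the member counts do not stand for separate sequences.

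The near copies bear on the counts. Of 21 stretches of 75 bases, the read length, laid around each annotated start, all 21 were unique on chromosomes X and 22 for CSAG1, MAGEA4, MAGEA12, MAGEC2 and PRAME. None were unique for MAGEA3 and MAGEA6, whose copies lie in each other, nor for CSAG3 and MAGEA2, whose copies lie at CSAG2 and MAGEA2B. Along the whole gene span, 45 of 141 such stretches were unique for MAGEA3 and 45 of 141 for MAGEA6. For CSAG3 these were 17 of 250 and for MAGEA2 0 of 158. How reads with several matches were counted is not given in the sources used here, so the split of tags between MAGEA3 and MAGEA6, and the identity of CSAG3 and MAGEA2 tags, are uncertain. The deposited counts gave CSAG2 2 tags in DBTRG-05MG “Vec” and 1 in DBTRG-05MG “WWOX”, and MAGEA2B 0 in every library.

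The libraries held 10756072 to 16953689 tags (median 14584829). A count of 3 tags, used as the floor below which a gene was not called on, was thus worth 0.177 to 0.279 CPM (tags per 1000000 tags of the library). Intervals given for summed tags cover counting error only. Nothing in the labels ties the replicates to separate transductions, so the p-values measure the spread between these libraries. Whether the tags of the WWOX gene include those of the introduced construct was not tested. The tags of this gene were at 33.9 to 40.1 CPM in U87MG “Vec” and 61.0 to 66.0 CPM in “WWOX”. In DBTRG-05MG they were at 20.4 to 22.2 CPM in “Vec” and 28.0 to 32.0 CPM in “WWOX”. The groups overlapped in T98G (34.3 to 57.2 against 45.1 to 61.8 CPM) and in U251MG (31.4 to 36.8 against 17.4 to 56.7 CPM). The library labelled U251MG “WWOX” replicate 1 stood apart, with 114 CPM of the astrocyte marker GFAP against 2035 to 3226 CPM in the other 5 libraries of that line. Its part in the results was not tested, and values that turn on it are given without it. Replicate 2 of the same group stood apart too, with 17.4 CPM of WWOX, below every U251MG “Vec” library. It held 31.0 CPM of SOX2, against 266 and 268 CPM in the rest of its group. In U251MG limma called 39 genes with all libraries, 34 without “WWOX” replicate 1 and 557 without “WWOX” replicate 2. The part of replicate 2 was not tested either. GFAP was at most 11.6 CPM in the other lines, and the 8 glioma and neural stem markers were uneven. CD44 was at 678 to 3520 CPM in all 24 libraries, while SOX2 was at or under the floor in both U87MG groups, S100B in U87MG “WWOX” and T98G “Vec”, NES in T98G “WWOX”, SLC1A3 in DBTRG-05MG “Vec” and OLIG2 in U251MG “Vec” and DBTRG-05MG “WWOX”. Of 8 germ cell markers, 7 (ACRV1, DAZL, DDX4, ODF1, PRM1, PRM2 and TNP1) were at or under the floor in every group and NANOS3 was at a mean of 1.91 CPM. Of 6 melanocyte markers, DCT, MLANA, TYR and TYRP1 were at or under the floor in every group, PMEL was not, and MITF was at a mean of 4.35 CPM.

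A member was called on in a group when each of the 3 libraries held more than 3 tags, off when none did and mixed otherwise. Of the 72 combinations of member and group, 14 were on, 50 off and 8 mixed. With a stricter limit of at least 1 CPM, 9 were on. No member was on in all 8 groups, and 5 of 9 (CSAG1, MAGEA3, MAGEA6, MAGEA12 and MAGEC2) were on in some group. U251MG “Vec” had the 4 members CSAG1, MAGEA3, MAGEA6 and MAGEA12 on, and U251MG “WWOX” the first 3 of these. DBTRG-05MG “Vec” had only MAGEC2 on, and DBTRG-05MG “WWOX” had CSAG1, MAGEA3 and MAGEC2. MAGEC2 was the single member on in both T98G groups and in U87MG “Vec”, and U87MG “WWOX” had none on.

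**Figure D2:**
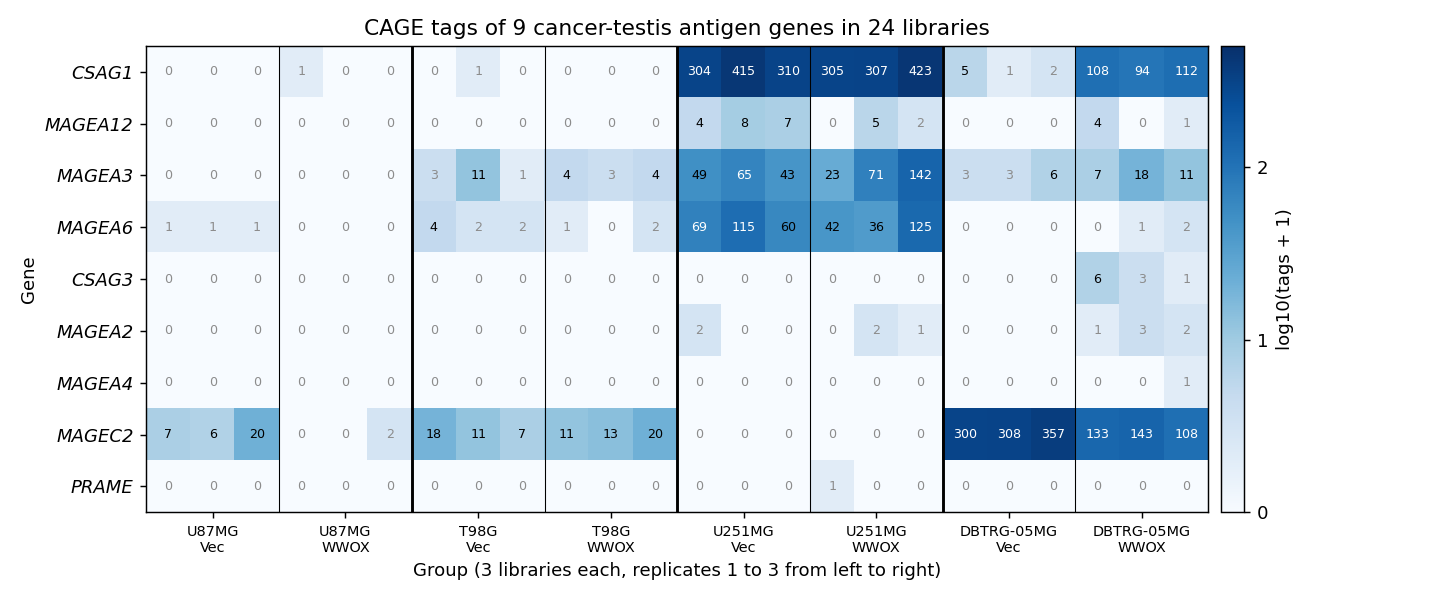
Tags of the 9 members (rows) in each of the 24 libraries (columns, grouped by line and variant), with the colour showing log10(tags + 1) and the number of tags in each cell. CSAG1 and the MAGEA3 and MAGEA6 pair carry tags in U251MG, MAGEC2 carries them in DBTRG-05MG, and CSAG1 appears in DBTRG-05MG “WWOX” with 94 to 112 tags per library.

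CSAG1 (chondrosarcoma-associated gene 1, ENSG00000198930.13, chrX:152727484-152733735) was high in U251MG whether or not WWOX had been introduced, and in DBTRG-05MG it was on in the “WWOX” variant and near the floor in “Vec”. In U251MG “Vec” its 3 libraries were at 24.6, 33.0 and 20.8 CPM (26.1 ± 6.27, SD, n = 3), and in U251MG “WWOX” at 20.9, 22.0 and 28.6 CPM (23.8 ± 4.17, SD, n = 3). These groups overlapped, with log2FC −0.13 (95% interval −0.59 to 0.33, limma adjusted p = 0.892). Without “WWOX” replicate 1 the log2FC was 0.04. In DBTRG-05MG “Vec” the libraries held 5, 1 and 2 tags, or 0.327, 0.0644 and 0.132 CPM, whereas those of DBTRG-05MG “WWOX” held 108, 94 and 112 tags, or 6.37, 6.09 and 7.68 CPM. The lowest “WWOX” library was thus far above the highest “Vec” library. U87MG had 1 tag over its 6 libraries and T98G likewise, so the order of levels was U251MG with its overlapping variants, then DBTRG-05MG “WWOX”, then the other groups, near or at 0.

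The rise of CSAG1 in DBTRG-05MG passed the test, with log2FC 3.30 (SE 0.216, 95% interval 2.84 to 3.76) on the log2(CPM + 0.5) scale and a limma adjusted p of 2.99e-09. That scale understates the change of a gene near 0. The summed tags, 8 in “Vec” and 314 in “WWOX”, gave a ratio of 38.4 after division by the totals (95% interval 19.3 to 89.8), or 68.4 (23.2 to 334) without “Vec” replicate 1, which held 5 of the 8 tags. edgeR on the recovered tags gave log2FC 5.15 (adjusted p = 1.04e-05). CSAG1 was called under all 12 alternative settings tried and with any 1 library left out. The 7 fibroblast and mural markers summed to 2.49 to 4.96 CPM in DBTRG-05MG “Vec” and 6.16 to 7.02 CPM in “WWOX”, and their part in the result was not tested.

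MAGEC2 (ENSG00000046774.10) encodes a MAGE protein that binds the ubiquitin ligase and corepressor TRIM28. It was highest in DBTRG-05MG, low in T98G and in U87MG “Vec”, and at 0 tags in all 6 libraries of U251MG. In DBTRG-05MG “Vec” the libraries were at 19.6, 19.8 and 23.5 CPM (21.0 ± 2.18, SD, n = 3), and in DBTRG-05MG “WWOX” at 7.84, 9.27 and 7.40 CPM (8.17 ± 0.974, SD, n = 3). The groups did not overlap, and MAGEC2 fell by 1.37 on the log2 scale (SE 0.241, 95% interval −1.88 to −0.86, limma adjusted p = 0.00255). The summed tags, 965 against 384, were 2.57-fold higher in “Vec” (95% interval 2.28 to 2.90). This call was lost with a pseudocount of 0.1 (adjusted p = 0.141) and with edgeR (adjusted p = 0.204), at log2FC −1.42 in both.

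In U87MG “Vec” MAGEC2 held 7, 6 and 20 tags, or 0.497, 0.464 and 1.40 CPM, and in U87MG “WWOX” 0, 0 and 2 tags. All “Vec” libraries lay above all “WWOX” libraries, although at counts this low replicate 3 of “Vec” held more than the other two together. The fall of 1.20 on the log2 scale (SE 0.241, 95% interval −1.71 to −0.69) passed the test with a limma adjusted p of 0.00376, and the summed tags were 17.1-fold higher in “Vec” (95% interval 4.38 to 147). That ratio was 10.3 without “Vec” replicate 3, 10.6 without “WWOX” replicate 1 and 11.3 without “WWOX” replicate 2, and “WWOX” replicate 3 held both tags of its group. In the same line 6 of the 7 fibroblast and mural markers were tested, and limma called 4, beside 3.2% of all genes. COL1A1 and COL1A2 were lower and DCN and LUM higher in “WWOX”. The sum of the 7 markers was 281.8 to 674.6 CPM in “Vec” and 133.4 to 275.7 CPM in “WWOX”. Their part in the result was not tested. With a separate model for each line the adjusted p was 0.140. In T98G MAGEC2 was at 1.27, 0.689 and 0.545 CPM in “Vec” and at 1.02, 0.965 and 1.32 CPM in “WWOX”. The T98G groups overlapped, with log2FC 0.31 (95% interval −0.20 to 0.82, limma adjusted p = 0.690).

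**Figure D3:**
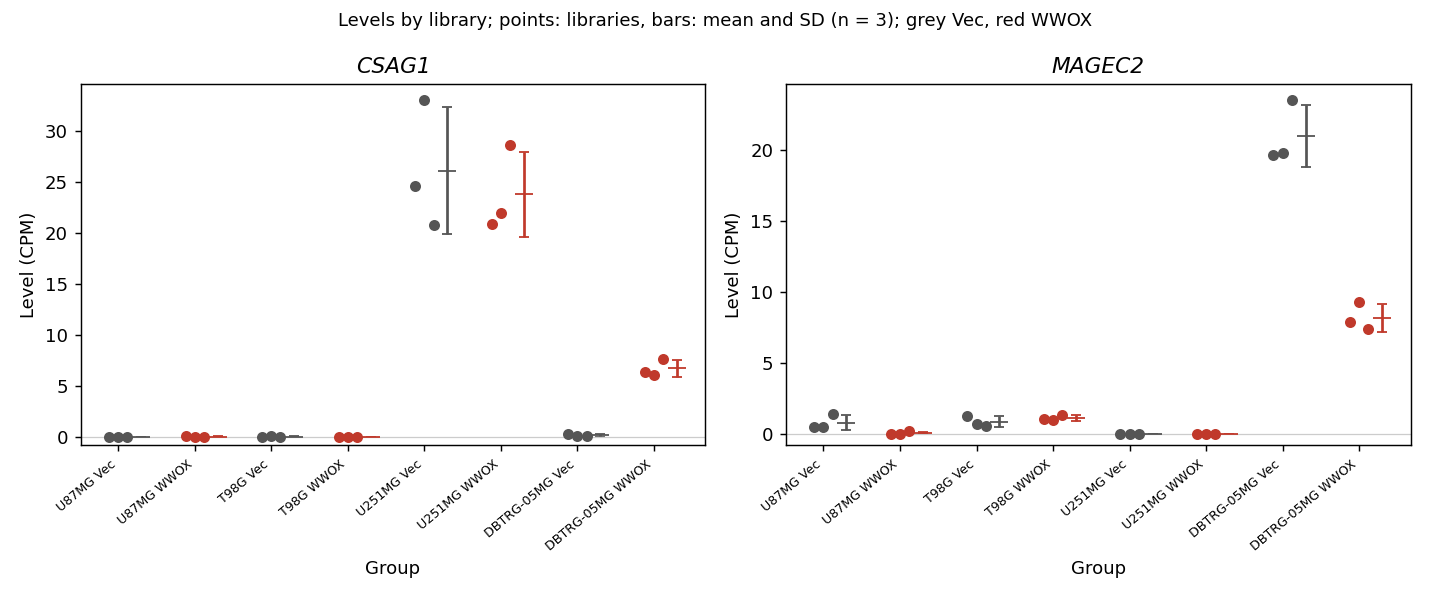
CPM of CSAG1 and MAGEC2 in each library (points), on a linear y axis from 0, by line and variant (x axis, grey “Vec”, red “WWOX”), with the mean and SD (n = 3) beside them. CSAG1 is at a mean of 0.175 CPM in DBTRG-05MG “Vec” and 6.71 CPM in “WWOX”, while MAGEC2 in the same line is at 21.0 and 8.17 CPM.

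MAGEA3 (ENSG00000221867.9) and MAGEA6 (ENSG00000197172.10) encode nearly identical proteins that bind TRIM28 and direct it to the energy sensor AMPK. Both were on in U251MG alone among the lines, apart from MAGEA3 in DBTRG-05MG “WWOX”. MAGEA3 was at 3.97, 5.17 and 2.88 CPM in U251MG “Vec” and at 1.58, 5.08 and 9.60 CPM in U251MG “WWOX”. MAGEA6 was at 5.59, 9.15 and 4.02 CPM in “Vec” and at 2.88, 2.57 and 8.45 CPM in “WWOX”. The groups overlapped for both genes, and “WWOX” replicate 3 was the highest of its group for each. Without “WWOX” replicate 1, the library low in GFAP, the log2FC would be 0.83 for MAGEA3 (adjusted p = 0.230) and −0.24 for MAGEA6 (adjusted p = 0.820). With all libraries the log2FC were 0.15 for MAGEA3 (95% interval −0.67 to 0.96, limma adjusted p = 0.948) and −0.52 for MAGEA6 (95% interval −1.10 to 0.06, limma adjusted p = 0.482).

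Since the starts of MAGEA3 and MAGEA6 cannot be told apart by 75-base reads, their tags were also summed, a choice made after seeing the data. The sum was 118, 180 and 103 tags in U251MG “Vec” and 65, 107 and 267 tags in “WWOX”. The variants again overlapped, with the lowest and the highest library both labelled “WWOX”, and the log2FC was −0.20 (95% interval −0.93 to 0.53, limma adjusted p = 0.902). In DBTRG-05MG the sum was 3, 3 and 6 tags in “Vec” and 7, 19 and 13 in “WWOX”. Those libraries did not overlap, but the log2FC of 0.73 did not pass the test (limma adjusted p = 0.646).

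MAGEA3 carried nearly all of the pair's tags in DBTRG-05MG, with 3, 3 and 6 in “Vec” and 7, 18 and 11 in “WWOX”. The ratio of the summed MAGEA3 tags, 12 and 36, was 2.94 (95% interval 1.49 to 6.20, counting error only), and the limma log2FC was 0.66 (95% interval −0.16 to 1.48, adjusted p = 0.778). T98G held 3, 11 and 1 MAGEA3 tags in “Vec” and 4, 3 and 4 in “WWOX”, and U87MG none in 6 libraries. MAGEA6 outside U251MG had at most 4 tags in a library, with 1 tag in each U87MG “Vec” library.

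The other members of the cluster were near the floor. MAGEA12, the back-to-back partner of CSAG1, held 4, 8 and 7 tags in U251MG “Vec” (0.477 ± 0.156 CPM, SD, n = 3) and 0, 5 and 2 in “WWOX” (0.164 ± 0.181 CPM, SD, n = 3). Its summed tags there, 19 and 7, were 2.95-fold higher in “Vec” (95% interval 1.19 to 8.32), or 1.96-fold (0.789 to 5.52) without “WWOX” replicate 1 and 7.004-fold (1.69 to 62.0) without “WWOX” replicate 2. In DBTRG-05MG it had 0 tags in “Vec” and 4, 0 and 1 in “WWOX”, so that CSAG1 rose there at a level of 314 tags beside 5 of MAGEA12. CSAG3, the near copy of CSAG1, was found in DBTRG-05MG “WWOX” with 6, 3 and 1 tags and in none of the other 21 libraries. Summed, these were 3.26-fold a floor of 3 tags over the “Vec” group, a value without counting error. Against the 0 tags held by “Vec”, the lower 95% counting bound of the ratio was 2.19. MAGEA2 held 1, 3 and 2 tags in DBTRG-05MG “WWOX” against 0 in “Vec”. Summed, these were 1.96-fold the same floor, and the lower 95% counting bound against 0 tags was 1.15. In U251MG MAGEA2 held 2, 0 and 0 tags in “Vec” and 0, 2 and 1 in “WWOX”.

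MAGEA4, whose protein stabilises the ubiquitin ligase RAD18, had 1 tag in the 24 libraries, in DBTRG-05MG “WWOX” replicate 3. PRAME, a repressor of retinoic acid receptor signalling that serves a cullin ubiquitin ligase, had 1 tag too, in U251MG “WWOX” replicate 1. With 3 tags as the limit that a count of 0 allows, levels of up to 0.177 to 0.279 CPM per library would not have been detected. MAGEA2, MAGEA4 and PRAME thus stayed at or under the floor in all libraries, and for MAGEA4 and PRAME no difference was detectable at this depth.

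Summed over the cluster without CSAG1, DBTRG-05MG held 3, 3 and 6 tags in “Vec”, all of MAGEA3, and 18, 25 and 17 tags in “WWOX”. In “WWOX” 4, 4 and 5 of the 5 genes had a tag. The low-level members of the cluster thus had more tags in the same libraries in which CSAG1 was found. This sum was put together after its parts had been seen and was not tested.

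**Figure D4:**
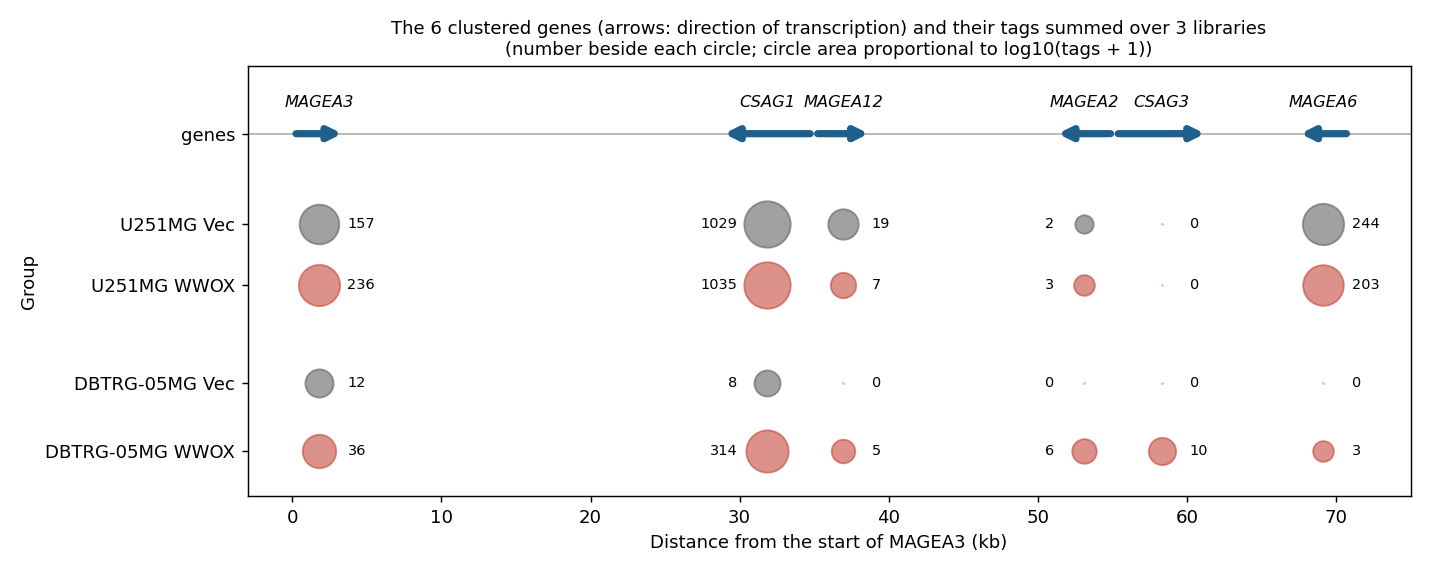
The 6 clustered members drawn to scale along the 70.95 kb span as distance from the start of MAGEA3, in kb, with arrows for the direction of transcription, above the summed tags of each member in the variants of U251MG and DBTRG-05MG (circle area by log10(tags + 1), numbers beside). In DBTRG-05MG CSAG1 goes from 8 to 314 tags, while its near neighbour MAGEA12 goes from 0 to 5.

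Of the 9 members, 4 (CSAG1, MAGEA3, MAGEA6 and MAGEC2) reached 5 CPM in a library and entered the test, each through the line in which it was high. In U87MG 1 of these was called, MAGEC2 (lower), where 3.2% of the 12327 genes tested were called in either direction and 1.66% as lower. In DBTRG-05MG 2 were called, CSAG1 (higher) and MAGEC2 (lower), where 1.02% of all genes were called, 0.519% as higher and 0.503% as lower. In T98G and in U251MG limma called 0 members, beside 1.14% and 0.316% of all genes. In both lines 0 of the 4 members had an unadjusted p under 0.05 by limma, and edgeR, limma-voom and DESeq2 also called 0. With single members and shares this small, the counts are read gene by gene and not as a result about the group.

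**Figure D5:**
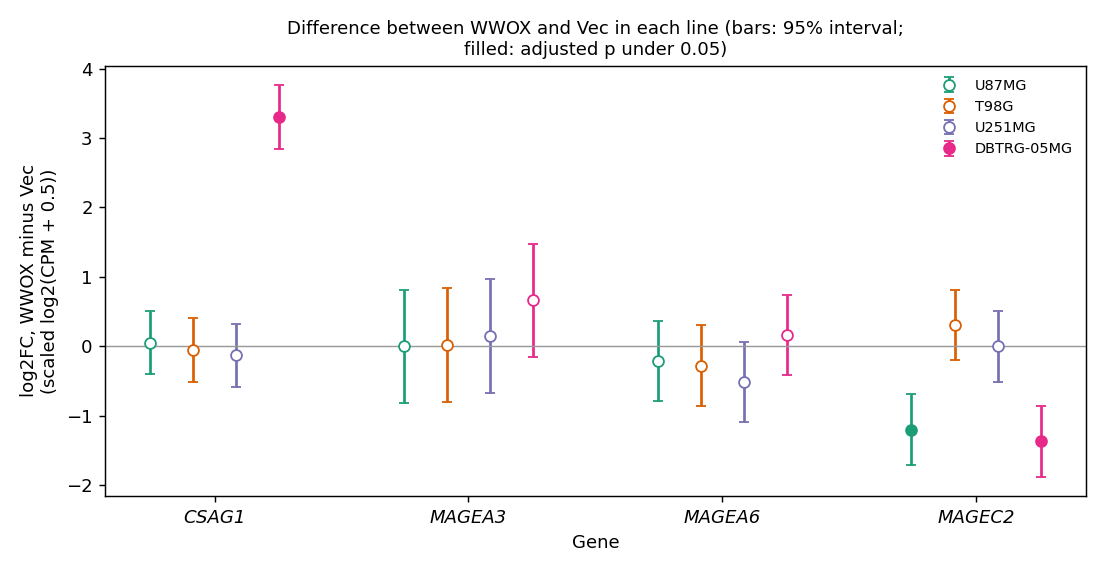
log2FC of “WWOX” against “Vec” with 95% intervals (y axis, scaled log2(CPM + 0.5)) for the 4 tested members (x axis) in each line (colours), with filled points for an adjusted p under 0.05. CSAG1 in DBTRG-05MG lies at 3.30, and MAGEC2 lies at −1.37 in DBTRG-05MG and −1.20 in U87MG.

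The size of the change was also compared between lines, each line against the mean of the other 3. For CSAG1 the difference was 3.34 in DBTRG-05MG (SE 0.250, limma adjusted p = 3.87e-08), where 0.982% of all genes were called in this comparison. The values of −0.98 in U87MG (adjusted p = 0.0362), −1.13 in T98G (0.0233) and −1.23 in U251MG (0.0272) each have DBTRG-05MG in the mean they are set against. In these comparisons 2.39% of all genes were called in U87MG, 1.54% in T98G and 0.422% in U251MG. For MAGEC2 the change in T98G differed from the others by 1.16 (SE 0.278, limma adjusted p = 0.0344). The differences in DBTRG-05MG (−1.07, adjusted p = 0.0781), U87MG (−0.85, adjusted p = 0.147) and U251MG (0.75, adjusted p = 0.261) did not pass. MAGEC2 had 0 tags in every U251MG library, so its log2FC there was fixed at 0. The value of 0.75 comes from the other lines and cannot test a change in U251MG. The same 0 enters the means set against the other lines. CSAG1, with 1 tag in U87MG and 1 in T98G, is nearly in the same position in those lines. The T98G value of MAGEC2 and the 3 negative values of CSAG1 lost their calls with edgeR, limma-voom, DESeq2 and the replicate number as a block. The CSAG1 value of 3.34 in DBTRG-05MG was not called by edgeR either.

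As a check of single values, the labels “Vec” and “WWOX” were exchanged within each line in all 160000 ways, a two-sided exact permutation test. Its smallest p is 1.25e-05 where no libraries tie. It is larger for CSAG1, MAGEA3, MAGEA6 and MAGEC2, for which libraries of a line tie at 0 tags. The mean log2FC over the 4 lines was −0.57 for MAGEC2 (exact p = 0.00975), 0.79 for CSAG1 (exact p = 0.0725), 0.21 for MAGEA3 (exact p = 0.318) and −0.21 for MAGEA6 (exact p = 0.127). These 4 p-values were not adjusted. Leaving out U251MG “WWOX” replicate 1 moved the exact p to 0.0425 for CSAG1 (mean log2FC 0.83) and to 0.017 for MAGEA3 (0.38), and leaving out U251MG “WWOX” replicate 3 moved it to 0.0272 for MAGEA6 (−0.31). Within a single line 3 libraries against 3 cannot give a p below 0.1.

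CSAG1, MAGEA3 and MAGEA6 had similar levels by line, for which the members were picked. Over the 24 libraries, which share lines and scaling, the Pearson r of the scaled log2 values was 0.919 for MAGEA3 with MAGEA6, 0.904 for CSAG1 with MAGEA3 and 0.854 for CSAG1 with MAGEA6. MAGEC2 had r of −0.285 with CSAG1, −0.352 with MAGEA3 and −0.556 with MAGEA6. For deviations from the group means, the values were 0.625, 0.565 and 0.467 for the first 3 pairs and −0.116, 0.0191 and 0.136 for those with MAGEC2, so the negative values came from the differences between groups. The genes most like CSAG1 in their levels were GNG7 (r = 0.962), PRKCH (0.948) and GBP5 (0.946), all 3 on other chromosomes. GNG7 was at a mean of 15.3 CPM in U251MG “Vec” and 21.2 in “WWOX”, and at 1.33 and 3.51 CPM in DBTRG-05MG. Those most like MAGEC2 were RHOD (r = 0.941), PRODH (0.940) and NOG (0.937). RHOD was at a mean of 21.0 CPM in DBTRG-05MG “Vec” and 10.2 CPM in “WWOX”. The means of the others were higher in “WWOX” there, PRODH at 326.7 and 379.3 CPM and NOG at 6.82 and 7.75 CPM. MAGEA6 was closest to SCUBE3 (r = 0.986), GALNT17 (0.985) and GPM6A-DT (0.981).

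The surroundings of the members were also looked up. Of the genes within 200 kb of a member, 6 besides the members entered the test. ZNF280B lies near PRAME, GABRE near MAGEA4, and GABRQ, CETN2, NSDHL and ZNF185 near the cluster. In DBTRG-05MG limma called 0 of the 6, with 0 at an unadjusted p under 0.05, and edgeR, limma-voom and DESeq2 called 0 too. GABRQ, a GABA receptor subunit gene, rose in U87MG (log2FC 1.73, limma adjusted p = 0.000652), a call that edgeR did not make. Within 5 Mb of the cluster, 65 tested genes other than the members had a median log2FC of −0.00 in DBTRG-05MG and 0 were called. Over the 412 tested genes of chromosome X, again without the members, the median was 0.05 and 1.46% were called.

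The lists of related genes put the members beside their families. Of 72 other X-linked cancer-testis genes, 55 were at or under the floor in every group and 39 had 0 tags, and 4 entered the test. MAGEA1, a MAGE gene outside the cluster, rose in U87MG from 0.497 to 1.05 CPM in “Vec” to 3.30, 4.07 and 16.3 CPM in “WWOX” (log2FC 2.30, SE 0.377, limma adjusted p = 0.000403), in the line where MAGEC2 fell. PAGE5, an X-linked cancer-testis gene of the GAGE and PAGE group, fell in DBTRG-05MG, from 29.5 ± 4.41 to 10.3 ± 2.92 CPM (SD, n = 3 each, log2FC −1.56, SE 0.300, limma adjusted p = 0.00639), a call that limma-voom also made and edgeR and DESeq2 did not (DESeq2 called PAGE5 in T98G instead). No other gene of this list was called by limma in any line.

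Of 36 autosomal cancer-testis genes, 27 were at or under the floor in every group. Of the 3 tested limma called 0, with 2 at an unadjusted p under 0.05 in U251MG, beside 1423 of all 12327 genes. With edgeR, limma-voom and DESeq2 0 of these autosomal genes were called too. IGF2BP3, an RNA-binding protein, had the highest mean of these at 37.1 CPM. The broadly expressed MAGE genes, which are not restricted to the germ line, held 11 genes with 7 tested. MAGED2 had the highest mean at 354.6 CPM. NDN, a MAGE family gene imprinted in the Prader-Willi region, rose in U87MG from between 0.850 and 1.61 CPM to between 23.7 and 34.3 CPM (log2FC 4.10, limma adjusted p = 4.02e-10) and in DBTRG-05MG from between 6.95 and 14.2 CPM to between 25.1 and 35.6 CPM (log2FC 1.35, limma adjusted p = 0.00691), the latter a call that edgeR did not make. MAGEE1 in U87MG was called by edgeR, limma-voom and DESeq2 but not by limma (log2FC 0.85, limma adjusted p = 0.381), and NSMCE3 in U251MG by DESeq2 alone (log2FC 0.62, limma adjusted p = 0.147).

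The partners and the silencing machinery were broadly present. Of 16 tested partners of the MAGE proteins and PRAME, limma called 0 in the 4 lines, with 4 values at an unadjusted p under 0.05. Of 26 tested genes of DNA methylation and gene silencing, limma called 0 as well, with 10 values at an unadjusted p under 0.05. By edgeR and limma-voom 0 of either list were called, and DESeq2 called 1 of each in U87MG, RARB (a retinoic acid receptor) and MBD2 (a methyl-CpG binding protein). ELOB, a subunit of cullin ubiquitin ligases, was the partner with the highest mean (1117 CPM), and DNMT1, the maintenance DNA methyltransferase, had the highest mean among the silencing genes (96.7 CPM). Of the silencing genes, 26 were on in all 8 groups.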

How the data were processed

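Total RNA of 24 cultures was cap-trapped, reverse transcribed with random primers and sequenced as single reads of 75 nt. The authors mapped the tags with STAR (hg38 per the submitters' processing notes, which also name SAMtools and limma 3.42) and deposited CPM values, that is, tags per gene per 1000000 tags of the library, for each library and as a joint table; treatment of multi-mapped reads and of strand is not given in the sources used here. Dividing each library by its smallest step, the worth of 1 tag, gave whole tags for 100% of the values (tolerance 0.0001), and limma-voom, edgeR and DESeq2 were run on these. Depth was 10756072 to 16953689 tags, and no column was left unused.

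Members were matched by Ensembl identifier with the version removed (43033 of 43037 rows had a symbol). For tests, CPM were rescaled by trimmed mean of M-values (trims of 30% and 5%), genes under 5 CPM in every library were dropped, and log2(CPM + 0.5) of the remaining 12327 genes entered limma 3.58.1 (lmFit and eBayes with trend, R 4.3.3) with the 8 groups as coefficients and 16 residual degrees of freedom. Two-sided p-values were adjusted by Benjamini-Hochberg over all 12327 genes, at 0.05. Intervals are at 95%; those of ratios of summed tags are exact and conditional on the sum. Alternatives were pseudocounts of 0.1 and 1, no filter, a mean filter, other scalings, separate models, a replicate block, edgeR 4.0.16, limma-voom, DESeq2 1.42.0 and each library left out; the summing of MAGEA3 and MAGEA6 was chosen after seeing the data. The scripts were tested on simulated data. Exact permutation tests, promoter windows (RefSeq, GRCh38.p14) and uniqueness searches used Python 3.11.15 and R.

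The members and gene lists were chosen with earlier results of these data known, possibly including the changes between “Vec” and “WWOX”. Named genes were the members, genes of each list past the threshold and the one with the highest mean, the 3 genes most like each member (up to 10), and tested genes within 200 kb. Protein sequences were not used here.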

Additional observations from a re-analysis of the deposited data

Results flagged for a closer look

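The change of CSAG1 between “Vec” and “WWOX” differed between the lines by a test of the difference itself. When the mean log2FC of the other 3 lines was subtracted, DBTRG-05MG was at 3.34, U87MG at −0.98, T98G at −1.13 and U251MG at −1.23. The 3 negative values share 1 source, the rise in DBTRG-05MG that enters the mean of the others. The value for DBTRG-05MG was called with any 1 library left out, while edgeR, with U87MG and T98G near 0 tags, did not call it. The value for U87MG lost its call without any 1 of 13 libraries, namely all 6 of U87MG, “Vec” replicates 1 and 3 of U251MG and of T98G, T98G “WWOX” replicate 3 and DBTRG-05MG replicate 3 of either variant (adjusted p of up to 0.120). The value for T98G lost it without T98G “Vec” replicates 1 or 3 or “WWOX” replicates 2 or 3 (up to 0.0856), and that for U251MG without U251MG “Vec” replicates 1, 2 or 3, U251MG “WWOX” replicate 1 or T98G “WWOX” replicate 3 (up to 0.0740). With the replicate number as a block these 3 values had adjusted p of 0.129 (U87MG), 0.0990 (T98G) and 0.122 (U251MG). They were not called by edgeR, limma-voom or DESeq2 either, and in U87MG the value was 0.90 with edgeR. The U87MG value also lost its call with pseudocounts of 0.1 and 1, no filter and the mean filter, and the U251MG value with a pseudocount of 0.1.

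The change of MAGEC2 in T98G differed from the mean of the other lines by 1.16 on the log2 scale. It rests on 7 to 20 tags per T98G library and on the falls in U87MG and DBTRG-05MG. Its call was lost without any 1 of 9 libraries, namely T98G “Vec” replicates 2 or 3, any “WWOX” library of T98G, U251MG “Vec” replicates 1 or 3, U87MG “WWOX” replicate 2 and DBTRG-05MG “WWOX” replicate 3 (adjusted p of up to 0.145). It was also lost with no filter (adjusted p = 0.0542), CPM as deposited (0.0584), limma-voom (0.0643), the replicate block (0.0849), DESeq2 (0.111) and edgeR (1.00).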

How the results depend on the processing

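In U87MG the called member was MAGEC2 under every setting but 2. The mean filter of 5 CPM left 1 member to test and called 0, and the separate model per line called MAGEA6 in its place, from 1 tag in each “Vec” library and 0 in “WWOX”. In DBTRG-05MG the main count of 2 became 1 (CSAG1) with a pseudocount of 0.1, the mean filter and edgeR. T98G and U251MG stayed at 0. Of the 14 combinations called on, 9 were left at 1 CPM or more. Leaving out a library gave 14 to 15, a count that by the rule can only stay or rise. For differences between lines, the count in U87MG (1) became 0 with a pseudocount of 1, no filter, the mean filter, the replicate block, edgeR and DESeq2, and 0 to 1 with a library left out. That in T98G (2) became 1 with no filter, the mean filter or CPM as deposited and 0 with the replicate block, edgeR, limma-voom and DESeq2, and 0 to 2 with a library left out. That in U251MG (1) became 0 with a pseudocount of 0.1, the replicate block, edgeR, limma-voom and DESeq2, and 0 to 1 with a library left out. That in DBTRG-05MG (1) became 2 with a pseudocount of 1 (CSAG1, MAGEC2) or no filter (CSAG1, CSAG3), 0 with edgeR, and 1 to 2 with a library left out. With no filter CSAG3 had log2FC 0.42 in DBTRG-05MG (adjusted p = 0.00117) from its 10 tags.

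Signs turned only where no call was made, except for CSAG1 in U87MG minus the other lines, 0.90 with edgeR. MAGEA3 in T98G (0.02) was −3e-04 with a pseudocount of 1, −0.007 with CPM as deposited, −0.21 with edgeR, −0.16 with DESeq2 and −0.20 summed with MAGEA6, and −0.19 to 0.30 with a library left out. MAGEA3 in U251MG was −0.20 summed with MAGEA6 and −0.26 to 0.83 with a library left out, and CSAG1 in U251MG was −0.3063 to 0.0386. The mean over lines in the exact permutation test ranged with a library left out from 0.76 to 0.83 for CSAG1, 0.10 to 0.38 for MAGEA3 and −0.31 to −0.14 for MAGEA6. The causes of these shifts were not tested.

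Replicate numbers did not pair the libraries (12 same-numbered pairs, r of −0.546 to 0.510, 4 over 0.1; 3 of 12 correlated best with their own number). With the replicate number as a block, MAGEC2 kept its calls in U87MG (adjusted p = 0.0122) and DBTRG-05MG (0.0171), as did CSAG1 in DBTRG-05MG (1.4e-05). Depth limits the members with under 10 tags per library, for which a change cannot be read.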

Other observations

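Other X-linked cancer-testis genes were also on in some groups, outside the comparisons above. By the same rule of more than 3 tags in each library, 13 of 72 were on in some group. DBTRG-05MG had 8 of them on in “Vec” and 6 in “WWOX”, T98G 2 and 0, U251MG 0 and 2, and U87MG 1 and 3. SPANXB1, a sperm protein gene of chromosome X, was at 11.2 to 50.6 CPM in DBTRG-05MG “Vec” and at 4.73 to 14.5 CPM in “WWOX”, with overlapping libraries.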
